A study of Mus musculus with 14 samples.

Results

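The genes of ATP-dependent chromatin remodelling were followed in single mouse oocytes with and without maternal Kdm1a. They are 47 listed genes, the SNF2-family ATPases and accessory subunits of the SWI/SNF, ISWI, NuRD, CHD, INO80, SRCAP, EP400 and ATRX remodellers, out of 24064 genes in the count table. The list was set by complex and not by how the genes behaved in these oocytes, though earlier results of these data were known. Of the 47, 46 had a row in the table, since Srcap, the ATPase of the SRCAP complex, had no row under that symbol and so no expression value here. Actl6b had no read in any oocyte, and 6 further genes (Smarcc2, Smarcd1, Smarcd3, Smarca1, Chd5 and Chd2) lay below the level set for testing. The other 39 were tested.

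Chromatin remodellers use ATP hydrolysis by an SNF2-type motor to slide, evict or exchange nucleosomes. The motor sets the family, and the subunits around it recognise DNA, histone marks or transcription factors. Oocytes store transcripts of such factors while they grow, and use them after fertilization, when the parental genomes are repackaged before the embryo transcribes its own genes.

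RNA was sequenced from single oocytes by a method that primes on the poly(A) tail and reaches up to 3 kb from the 3' end. The wt/wt controls, wt1, wt3, wt4 and wt5, were C57BL/6J with intact Kdm1a. The f/f control, C3, was of a mixed B6;129 strain and homozygous for a Kdm1a allele with loxP sites around the first exon, without Cre. The mutants, labelled mko/mko, were 5 oocytes (D1, D2, D3, D4 and D7) that carried that allele in the same mixed strain with a Zp3-cre transgene, which is expressed in the growing oocyte. C3, D3, D4 and D7 each have 2 libraries, which were summed, so that 14 libraries gave 10 oocytes. No label ties an oocyte to a female, and p-values measure the spread between these oocytes. The study's methods state an age for the females that gave embryos, young animals of the same f/f genotypes with and without Zp3-cre, and no separate age for those that gave oocytes. Strain coincides with wt/wt against the rest, and the wt/wt libraries are named by another scheme. Strain and that naming series cannot be told apart from whatever else separates wt/wt from the other oocytes, and C3 is the single control that shares both with the mutants.

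Total counts per oocyte were 1375187 to 1892015 in wt/wt, 6928548 in C3 and 2016701 to 6926076 in mutants. Levels are given as CPM, counts scaled to 1e6 over library sizes adjusted by TMM factors. They are relative to the other RNA of the oocyte and not amounts, and over adjusted sizes they do not sum to 1e6. The 5 controls together were compared with the 5 mutants by edgeR's quasi-likelihood test, and a gene counted as called where its Benjamini-Hochberg adjusted p over 9198 genes was under 0.05 and its log2 fold change lay at or beyond 1 in size. Kdm1a, counted first as a check of the labels, had 70, 43, 85 and 27 counts in wt1, wt3, wt4 and wt5, 669 in C3, and 0, 2, 4, 3 and 10 in D1, D2, D3, D4 and D7. Of 12 oocyte markers, 8 were called higher in mutants, and their summed level was 19860 to 34840 CPM in wt/wt, 56660 in C3 and 49520 to 111900 in mutants. Of 20 cumulus and granulosa markers, 9 had no count in any oocyte, the defining Fshr, Amh, Inha, Foxl2 and Lhcgr among them. Their summed level was 26.9 to 80.7 CPM in wt/wt, 71.3 in C3 and 86.5 to 157 in mutants. Cyp19a1, the aromatase, was called higher (log2 fold change 1.48), and without it the sum of the other 19 went the other way, with 13.9 to 27.6 CPM in wt/wt, 8.44 in C3 and 7.31 to 9.97 in mutants. Nr5a2, the most abundant of those in wt3, wt4 and wt5, had a log2 fold change of -1.60 that did not pass (adjusted p = 0.09156 from edgeR). The part of these markers in the results that follow was not tested.

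In mutant oocytes, 5 remodeller genes rose and 4 fell. Those that rose were the SWI/SNF ATPase Smarca2, its partner subunit Arid1b, the NuRD ATPase Chd4, the NuRD scaffold Mta3 and the ATPase Chd7. Those that fell were Arid2 of the PBAF form of SWI/SNF, the AAA+ ATPase Ruvbl1 shared by INO80, SRCAP and EP400, and the SNF2 ATPases Hells and Smarcad1. The 9 called genes were 23.1% of the 39 tested, beside 25.9% of all genes tested. Of all genes, 14.7% were called higher and 11.2% lower. In 6 of the 39, the 5 higher genes and Smarcad1, the mutant and control oocytes did not overlap (15.4%, beside 16.2% of all genes). This separation turned with the scaling. Over plain total counts without TMM factors, the groups were apart in 5 of the 39, Chd4 as higher and Arid2, Hells, Pbrm1 and Gatad2a as lower (12.8%, beside 14.0% of all genes), so that Chd4 alone was apart on both scales. The order of oocytes given for each gene below is over TMM-adjusted sizes unless total counts are named. The median log2 fold change of the 39 was -0.24, beside 0.17 for all genes tested, and 18 of the 39 were positive. With no fold threshold, the adjusted p alone also gave 9. The share called was near that of all genes, so what follows describes single genes.

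**Figure D1:**
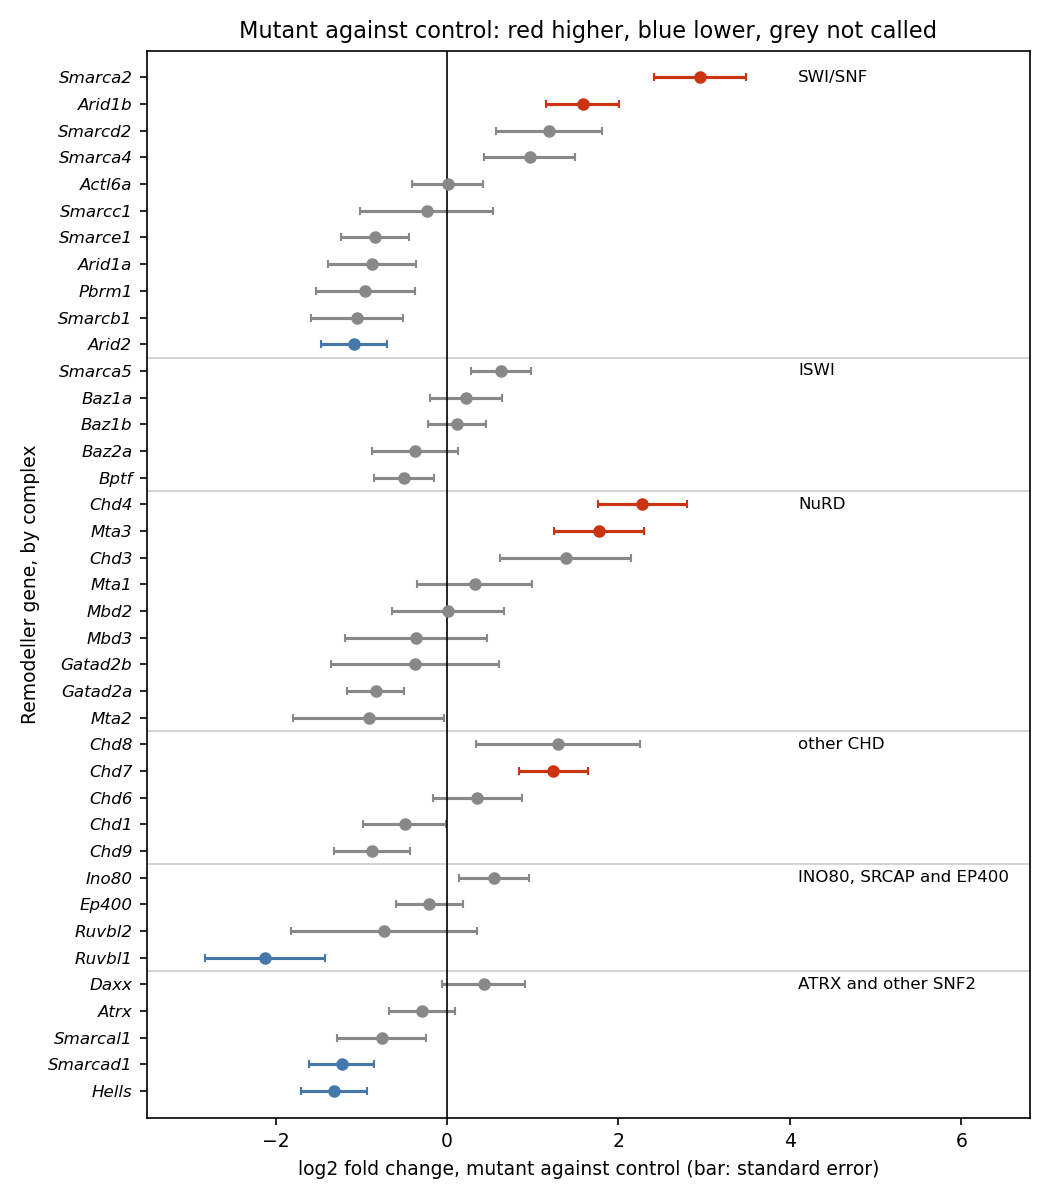
Log2 fold change, mutant against control, for the 39 remodeller genes tested, grouped by complex, with bars of 1 standard error from edgeR. The 5 genes called higher are in red and the 4 called lower in blue, and the 5 ISWI genes hold no call.

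By motor and accessory part, 5 of 16 tested SNF2 ATPases were called, 3 higher (Smarca2, Chd4 and Chd7) and 2 lower (Hells and Smarcad1). Of 23 other subunits, 4 were called. These shares are 31.2% and 17.4%, beside 25.9% of all genes, and the difference between them was not tested. The 5 tested ISWI genes held 0 calls, a number too small to set apart from that background share.

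In SWI/SNF, which loosens nucleosomes at promoters and enhancers, Smarca4 (BRG1) and Smarca2 (BRM) are alternative motors. Smarca2 had 9.95, 14.7, 13.9 and 11.2 CPM in wt1, wt3, wt4 and wt5, 12.4 in C3, and 80.1, 53.0, 90.8, 239 and 18.5 in D1, D2, D3, D4 and D7. The 5 controls were alike, C3 lay among the wt/wt oocytes, and each mutant lay above them, D7 the least. Over total counts D7 (17.3 CPM) fell below wt3 (19.5) and wt4 (17.97), and C3 (8.08) below every wt/wt oocyte, with the call kept. Smarca2 rose by 2.95 on the log2 scale (standard error 0.54, adjusted p = 0.001606 from edgeR), from 12.4 ± 1.93 to 96.2 ± 84.5 CPM (SD, n = 5 each). Without D4, the highest oocyte, it was 2.29. Smarca2 lies on chromosome 19 of GRCm38 (mm10), 26605050 to 26778322 on the plus strand, and overlaps 4931403E22Rik and Gm20616 on the other strand. The strand setting of the counting is not given in the sources used here, so reads from these partners cannot be told apart.

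Smarca4 had 6.63, 7.77, 4.50 and 4.49 CPM in wt1, wt3, wt4 and wt5, 5.55 in C3, and 20.3, 9.14, 3.92, 16.1 and 6.98 in D1, D2, D3, D4 and D7. D1 and D4 lay well above the controls and D3 below them, so the groups overlapped. Its log2 fold change of 0.96 (standard error 0.53) did not pass (adjusted p = 0.1861 from edgeR).

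The ARID subunits divide SWI/SNF into forms, with Arid1a and Arid1b alternative in the BAF form and Arid2 in PBAF. Arid1b had 7.74, 10.8, 6.13 and 16.6 CPM in wt1, wt3, wt4 and wt5, 10.9 in C3, and 34.6, 23.8, 20.3, 49.6 and 27.9 in D1, D2, D3, D4 and D7. Each mutant lay above each control, but over total counts D2 and D3 (19.3 and 17.6 CPM) lay below wt5 (22.6), and the call was lost there (adjusted p = 0.09064 from edgeR). Over adjusted sizes Arid1b rose by 1.58 on the log2 scale (standard error 0.42, adjusted p = 0.01361 from edgeR). Arid1b is on chromosome 17, 4994332 to 5347656 on the plus strand, and overlaps Gm15599 on the other strand.

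Arid1a had 873, 522, 726 and 214 CPM in wt1, wt3, wt4 and wt5, 2668 in C3, and 476, 391, 713, 430.3 and 725 in D1, D2, D3, D4 and D7. The mutants fell inside the wt/wt range, and C3 was far above both. The log2 fold change of -0.87 was not called (adjusted p = 0.2189 from edgeR), and it was -0.07 without C3.

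Arid2 had 187, 226, 273 and 163 CPM in wt1, wt3, wt4 and wt5, 470.0 in C3, and 91.0, 92.6, 164, 82.3 and 192 in D1, D2, D3, D4 and D7. D1, D2 and D4 lay below every control, whereas D3 and D7 lay within the range of wt/wt. Over total counts the groups were apart, with 70.7 to 179.8 CPM in mutants and 222 to 352 in controls (adjusted p = 0.01015 from edgeR). It was called lower (log2 fold change -1.09, standard error 0.38, adjusted p = 0.04636 from edgeR), and the call was lost without C3, where the value was -0.76. It was also lost when wt1, wt3, wt4, D1, D2 or D4 was left out, and with GC and length trends removed (-0.91, adjusted p = 0.06247 from edgeR).

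Among the core subunits, no gene was called. Smarcb1, which contacts the nucleosome, had log2 fold change -1.05, Smarce1, an HMG-box subunit, -0.84, Pbrm1, the bromodomain subunit of PBAF, -0.95, Smarcc1, a scaffold, -0.24, and Actl6a, an actin-like subunit, 0.01. Smarcd2, an adaptor subunit, was not called at 1.19 (standard error 0.62, adjusted p = 0.1612 from edgeR), had 0.46 without D1, and is described with the f/f oocyte below. The paralogs of these subunits were nearly silent: Smarcc2 had no read outside D4 (5), Smarcd1 had 0 to 5 reads, Smarcd3 had 1 read in D4, and Actl6b, which belongs to the neuronal form, had 0 reads.

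NuRD couples the CHD motors to histone deacetylases. Chd4 had 7.19, 53.1, 20.04 and 30.5 CPM in wt1, wt3, wt4 and wt5, 79.9 in C3, and 296, 229.7, 136, 130.2 and 142 in D1, D2, D3, D4 and D7. The wt/wt oocytes varied among themselves, C3 was the highest control, and every mutant lay above C3. Over total counts wt3 was the highest control (70.7 CPM), still below every mutant (117 to 230.1). Chd4 rose by 2.28 on the log2 scale (standard error 0.52, adjusted p = 0.00573 from edgeR), from 38.2 ± 28.8 to 187 ± 73.5 CPM (SD, n = 5 each). It was 2.02 to 2.78 as each oocyte was left out in turn, with the call kept in all 10. Chd4 spans 125095981 to 125130591 of chromosome 6 on the plus strand.

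Its paralog Chd3 was scarce, with 0.553, 0.432, 0.818 and 1.79 CPM in wt1, wt3, wt4 and wt5, 0.888 in C3, and 3.29, 2.44, 1.42, 1.67 and 3.49 in D1, D2, D3, D4 and D7, or 1 to 11 reads per oocyte. The ranges met, because wt5 exceeded D3 and D4, and the log2 fold change of 1.38 did not pass (adjusted p = 0.1886 from edgeR). Chd5, a motor known from neurons and testis, had 0 to 8 reads.

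Mta3 had 36.5, 139, 135 and 107 CPM in wt1, wt3, wt4 and wt5, 139 in C3, and 884, 513, 181, 145 and 186 in D1, D2, D3, D4 and D7. D1 and D2 were far above the rest, and D4 lay just above the highest controls. Over total counts D3, D4 and D7 (138 to 175 CPM) lay below wt3 (186), with the call kept (adjusted p = 0.04813 from edgeR). It was called higher (log2 fold change 1.77, standard error 0.52, adjusted p = 0.0209 from edgeR). Without D1 the value was 1.24 and the call was lost, as it was with GC and length trends removed (1.32, adjusted p = 0.05194 from edgeR). Mta3 is on chromosome 17, 83706163 to 83821516 on the plus strand. The other MTA scaffolds were not called. Mta1 had 0.32, but 1.09 without C3 and -0.27 without D1, and Mta2 had -0.91, but -1.87 without D2. Mbd2 (0.01), which binds methylated CpG, and its relative Mbd3 (-0.36), which define alternative NuRD complexes, were not called, and their signs too turned as an oocyte was left out. Gatad2a, a subunit that joins the deacetylase part to the motor, had log2 fold change -0.83 (standard error 0.33) and missed the threshold (adjusted p = 0.07057 from edgeR). Gatad2b, at 0 to 17 reads, had -0.37.

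**Figure D2:**
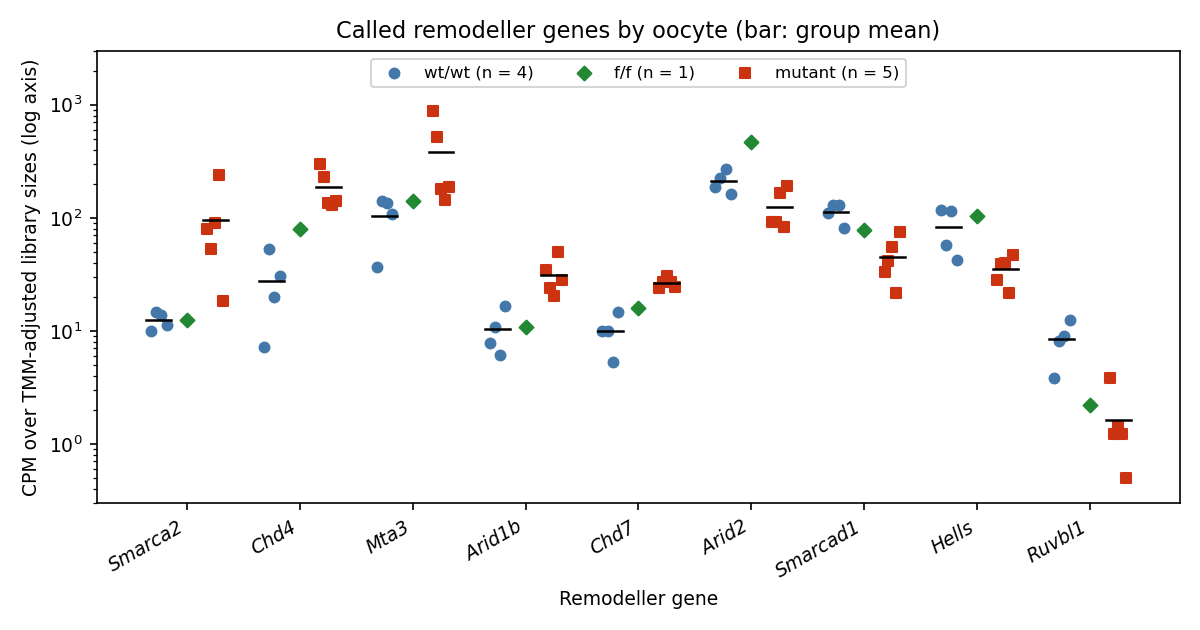
CPM over TMM-adjusted library sizes (log axis) of the 9 called remodeller genes in each oocyte, with blue circles for wt/wt, green diamonds for f/f, red squares for mutants and a bar at the mean of the 4 wt/wt and of the 5 mutant oocytes. The f/f oocyte lies with the wt/wt oocytes for Smarca2 and Arid1b, between wt/wt and mutant for Chd4, and above all other oocytes for Arid2, on this scale.

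Of the other CHD motors, Chd7, which acts at enhancers, had 9.95, 9.93, 5.32 and 14.8 CPM in wt1, wt3, wt4 and wt5, 15.98 in C3, and 24.1, 26.8, 30.6, 27.2 and 24.4 in D1, D2, D3, D4 and D7. The mutants were close to each other and each lay above C3, the highest control. Over total counts wt5 (20.2 CPM) was the highest control and lay above D1 (18.8), and the call was lost (adjusted p = 0.1771 from edgeR). Chd7 rose by 1.24 on the log2 scale (standard error 0.41, adjusted p = 0.03306 from edgeR), and the call was lost when wt1, wt3, wt4, D1, D2 or D3 was left out, with values of at least 1.06. Chd7 is on chromosome 4, 8690406 to 8867659 on the plus strand. Chd1, which binds the promoter mark of active genes, had -0.49, Chd6 0.35 and Chd9 -0.88, none of them called, and Chd2 had 0 to 8 reads. Chd8, a motor linked to beta-catenin target genes, was not called at 1.29 (adjusted p = 0.3338 from edgeR) and is taken up below.

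ISWI remodellers space nucleosomes evenly. Their motor Smarca5 (SNF2H) had 112, 124, 74.4 and 95.1 CPM in wt1, wt3, wt4 and wt5, 212 in C3, and 143, 144, 259, 204 and 208 in D1, D2, D3, D4 and D7. All mutants lay above the wt/wt oocytes, but C3 lay among the mutants. Over total counts D1 and D2 (111 and 118 CPM) lay within the range of wt/wt (96.2 to 165). The log2 fold change of 0.63 (standard error 0.35) did not pass (adjusted p = 0.1931 from edgeR), and it was 0.92 without C3, where the adjusted p from edgeR was 0.03656 and the gene missed only the fold threshold. With GC and length trends removed it was likewise 0.89 (adjusted p = 0.04926), and with C3 alone as control it was -0.15 (adjusted p = 0.9015). The alternative motor Smarca1 (SNF2L) had 3 reads in D2 and none elsewhere, where 0 reads allow up to 3 counts per oocyte. The partners of Smarca5 were not called: Bptf, the large subunit of NURF, had -0.50, Baz1a of ACF 0.22, Baz1b of WICH 0.12 and Baz2a of NoRC -0.38.

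INO80, SRCAP and EP400 move or exchange the histone variant H2A.Z. Ino80 had 26.0, 25.5, 11.4 and 35.4 CPM in wt1, wt3, wt4 and wt5, 41.5 in C3, and 36.2, 41.4, 47.7, 21.1 and 58.3 in D1, D2, D3, D4 and D7. The groups overlapped and the log2 fold change of 0.54 did not pass (adjusted p = 0.341 from edgeR). Ep400 had 328, 364, 344 and 234 CPM in wt1, wt3, wt4 and wt5, 944 in C3, and 246, 339.9, 539, 379 and 416 in D1, D2, D3, D4 and D7. C3 was above every other oocyte, wt/wt and mutants overlapped, and the log2 fold change was -0.21 (adjusted p = 0.7311 from edgeR), a sign that turned without C3 (0.29).

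Ruvbl1 had 3.87, 8.20, 9.00 and 12.6 CPM in wt1, wt3, wt4 and wt5, 2.22 in C3, and 3.84, 1.22, 1.42, 1.22 and 0.499 in D1, D2, D3, D4 and D7. The mutants lay below the wt/wt oocytes, D1 by a narrow margin, but C3 lay within the mutants. It was called lower (log2 fold change -2.13, standard error 0.70, adjusted p = 0.03381 from edgeR) on 1 to 28 reads per oocyte, and the call was lost when any oocyte other than wt1, C3 or D1 was left out. Ruvbl1 spans 88465409 to 88497572 of chromosome 6 on the plus strand. Its partner in the same ring, Ruvbl2, had 0 to 25 reads and a log2 fold change of -0.73 (standard error 1.08), not called. It was -1.63 without D4, -0.19 without wt1 and 2.56 with C3 alone as control, where Ruvbl2 had 1 read.

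Among ATRX and the remaining SNF2 motors, Hells (LSH), which is required for DNA methylation at repeats, had 118, 57.8, 114 and 42.2 CPM in wt1, wt3, wt4 and wt5, 105 in C3, and 28.0, 39.0, 39.9, 21.4 and 46.9 in D1, D2, D3, D4 and D7. The groups met at wt5, which lay below D7, and were apart over total counts (20.4 to 44.0 CPM in mutants, 57.4 to 156 in controls). Hells was called lower (log2 fold change -1.32, standard error 0.39, adjusted p = 0.02004 from edgeR), with the call lost without wt1, wt4 or D1 and with GC and length trends removed (-0.96, adjusted p = 0.0558). Hells is on chromosome 19, 38930915 to 38971051 on the plus strand.

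Smarcad1, which helps to keep heterochromatin through replication, had 110.5, 129.9, 129 and 80.8 CPM in wt1, wt3, wt4 and wt5, 77.7 in C3, and 32.9, 41.4, 54.8, 21.6 and 75.3 in D1, D2, D3, D4 and D7. Each mutant lay below each control, D7 just below C3, whereas over total counts D7 (70.7 CPM) lay above C3 (50.5). The log2 fold change was -1.23 (standard error 0.38, adjusted p = 0.02658 from edgeR), and the call was lost without wt1, wt3, wt4 or D1. Smarcad1 is on chromosome 6, 65042583 to 65116061 on the plus strand.

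Atrx, which with Daxx deposits a replacement histone at heterochromatin, had 237, 180.0, 231 and 188 CPM in wt1, wt3, wt4 and wt5, 417 in C3, and 213, 136, 329.7, 92.3 and 253 in D1, D2, D3, D4 and D7. The wt/wt oocytes lay within the mutants' range. The log2 fold change was -0.29 (standard error 0.39, adjusted p = 0.6096 from edgeR). Daxx had 31.5, 55.7, 47.8 and 16.1 CPM in wt1, wt3, wt4 and wt5, 51.7 in C3, and 107, 84.7, 36.7, 24.8 and 21.4 in D1, D2, D3, D4 and D7. D1 and D2 exceeded the controls and the other mutants lay among them (log2 fold change 0.43, adjusted p = 0.5455 from edgeR). Smarcal1, which acts at stalled forks, had -0.76, not called.

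C3 had a part in several of these values. C3 lay above every wt/wt oocyte for 18 of the 39 genes (46.2%, beside 28.4% of all genes tested), and above each other oocyte for 8 of them (Arid1a, Arid2, Gatad2a, Gatad2b, Chd8, Chd9, Ep400 and Atrx, beside 12.9% of all genes). The scaling bears on this, since the TMM factor was 0.651 in C3, 1.30 to 1.37 in wt/wt and 0.779 to 0.952 in mutants. Over plain total counts, C3 exceeded every wt/wt oocyte for 6 of the 39 (Smarcd2, Arid1a, Mta1, Gatad2b, Chd8 and Ep400, 15.4%, beside 10.5% of all genes). It was highest of all 10 oocytes for 3 (Arid1a, Gatad2b and Ep400, beside 3.82%). The summed level of the 46 genes was 2113 to 3252 CPM in wt/wt, 6569 in C3 and 2529 to 3698 in mutants over adjusted sizes, and 2878 to 4203, 4270.0 and 2401 to 3097 over total counts. These are values of a single f/f oocyte and have no test.

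**Figure D3:**
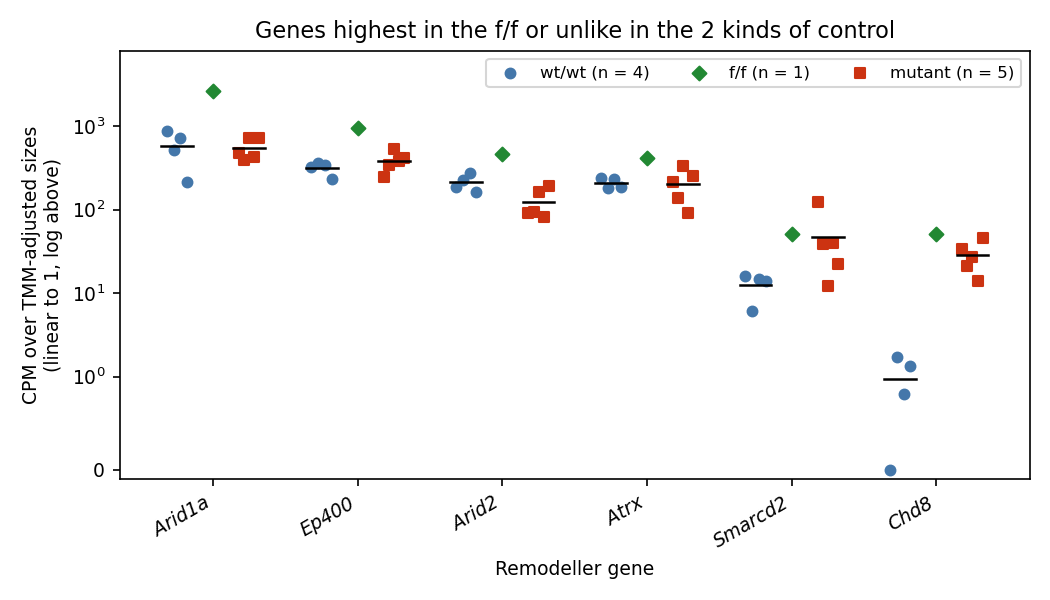
CPM over TMM-adjusted library sizes (axis linear to 1 and log above) of 6 remodeller genes, chosen after their values were seen, in each oocyte, with blue circles for wt/wt, green diamonds for f/f, red squares for mutants and bars at the wt/wt and mutant means. The f/f oocyte is highest for Arid1a, Ep400, Arid2, Atrx and Chd8, and for Smarcd2 and Chd8 it lies with the mutants, away from wt/wt.

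Chd8 and Smarcd2 were the genes that gained a call when C3 was left out. Chd8 had 0, 4, 2 and 3 reads in wt1, wt3, wt4 and wt5, 231 in C3, and 61, 35, 77, 93 and 91 in D1, D2, D3, D4 and D7. In CPM that was 0 to 1.73 in wt/wt, 51.3 in C3 and 14.2 to 45.4 in mutants, so that C3 stood with the mutants and wt/wt apart. Chd8 lies on chromosome 14, 52198151 to 52257780 on the minus strand, and overlaps Gm26590 on the other strand and Snord8. Smarcd2 had 16.03, 6.04, 14.7 and 13.9 CPM in wt1, wt3, wt4 and wt5, 51.5 in C3, and 125, 38.4, 12.1, 39.5 and 22.4 in D1, D2, D3, D4 and D7.

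Against wt/wt without C3, 10 of 38 remodeller genes were called (26.3%, beside 31.5% of all genes). Chd8 (log2 fold change 4.76) and Smarcd2 (1.94) were then added as higher and Arid2 was lost. Because strain and naming series differ between these groups, they cannot be told apart from genotype there. With C3 alone as control, 1 of 39 was called (beside 1.14% of all genes), Arid1a, which was lower at -2.29. Chd8 and Smarcd2 then had negative values of -0.86 and -0.12. In that fit the single f/f oocyte is assumed to vary like the wt/wt and mutant oocytes. The 9 genes called with all controls kept their sign against C3 alone but none was called, with Smarca2 at 2.96, Chd4 at 1.22, Chd7 at 0.74, Ruvbl1 at -0.46 and Arid2 at -1.92.

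The ratio of paired subunits in the same oocyte does not depend on the scaling between oocytes where both have reads. Where the second gene had no read, the ratio, with 0.5 added to each count, followed the reads of the first. Of 14 pairs, 6 had at least 20 summed reads in each oocyte. Smarca4 made 40.0%, 34.6%, 24.4% and 28.6% of the reads of Smarca4 and Smarca2 in wt1, wt3, wt4 and wt5, 30.9% in C3, and 20.2%, 14.7%, 4.14%, 6.32% and 27.5% in D1, D2, D3, D4 and D7. D7 lay among the controls and the other mutants below them. The mean log2 ratio was -1.10 ± 0.39 in controls and -2.84 ± 1.30 in mutants (SD, n = 5 each), a difference of -1.74 (two-sided exact permutation test over all groupings of the oocytes into 5 and 5, p = 0.0159, adjusted over the 6 pairs p = 0.0952, smallest possible p = 0.0079). The ratio of Arid1a to Arid1b differed by -2.01 (exact permutation test, p = 0.0476, adjusted p = 0.1429), with Arid1a making 92.8% to 99.6% of the pair in controls and 89.7% to 97.2% in mutants. Smarca5 made at least 98.75% of its pair with Smarca1 in every oocyte, Actl6a 100% with Actl6b, and Gatad2a at least 99.2% with Gatad2b. The last of the 6, Baz1a with Baz1b, had a log2 ratio of -0.79 ± 0.77 in controls and -0.65 ± 1.02 in mutants (SD, n = 5 each). No pair passed after adjustment, and by the exact permutation test 2 did at an unadjusted p under 0.05. The pairs with Smarca1, Actl6b and Gatad2b, whose second gene was absent or nearly so, could hardly show a shift. They count among the 6 pairs of the adjustment, which raised the adjusted p of the others.

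**Figure D4:**
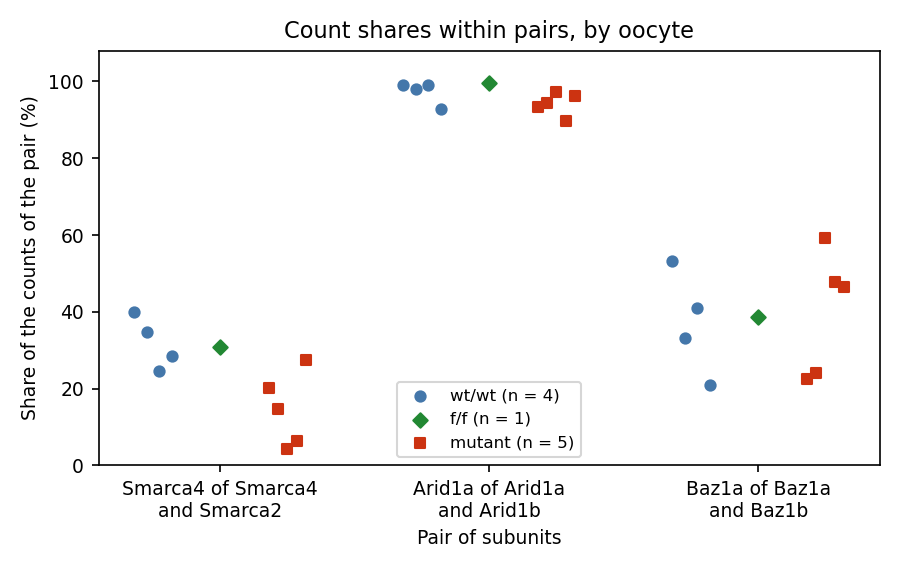
Share of reads, in percent, taken by the first gene of 3 subunit pairs in each oocyte, with blue circles for wt/wt, green diamonds for f/f and red squares for mutants. For Smarca4 with Smarca2 the mutants reach from 4.14% to 27.5% and the controls from 24.4% to 40.0%, and the groups overlap in each of the 3 pairs.

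Levels of different genes can be compared only per length. Per kb of transcript, with the length taken as at most 3 kb, Arid1a had the highest mean level of the 39 in wt/wt oocytes, 194 CPM per kb, above 96.5% of all genes tested. Its spread was wide (584 ± 286 CPM before division by length, SD, n = 4), and in wt5 it lay below Gatad2a and Ep400, whose lengths count as 3 kb too (214, 310.0 and 234 CPM). By the mean, Gatad2a followed with 123, Ep400 with 106, Arid2 with 70.8, Bptf with 70.5 and Atrx with 69.7 CPM per kb. The lowest were Gatad2b with 0.257, Chd3 with 0.300 and Chd8 with 0.324 CPM per kb. Chd4 and Smarca2 were of middle rank in wt/wt oocytes, at 9.23 and 4.14 CPM per kb (above 62.8% and 48.0% of genes), and reached 62.2 and 32.1 CPM per kb in mutants. Arid2, Bptf and Atrx lay closer to each other than the spread between wt/wt oocytes, whose SD before division by length was 47.8, 47.9 and 29.1 CPM (n = 4).

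Other remodeller genes, 65 in number, were listed by complex and not by how they moved, though with earlier results known. Of these, 48 were tested and 9 were called (18.8%, beside 25.9% of all genes), 3 higher and 6 lower. The 3 higher were the scaffold Trrap (log2 fold change 3.43, from 0 to 3.55 CPM in controls and 4.99 to 21.9 in mutants), the H2A.Z chaperone Vps72 (1.91) and the SNF2 ATPase Rad54l2 (1.70). The 3 lower genes of smallest p were the SNF2-type ubiquitin ligase Shprh (-1.85, from 54.3 to 129 CPM in controls and 17.6 to 35.9 in mutants), the SNF2 ATPase Ercc6l2 (-1.81) and the ISWI partner Cecr2 (-1.59, from 625 to 852 CPM in controls and 146 to 413 in mutants). In the wt/wt oocytes Trrap had 0 to 0.449 CPM, so the size of its value rests on C3 (3.55 CPM). With C3 alone as control it was 1.60 and not called (adjusted p = 0.45 from edgeR), and without C3 the fitted 6.12, against nearly no reads, depends on the prior count. Vps72 lost its call with GC and length trends removed (1.13) and Rad54l2 with total-count scaling (1.16). For Shprh, Ercc6l2 and Cecr2, each mutant lay below each control over adjusted sizes. On that scale the groups were apart in 8 of the 48 (16.7%, beside 16.2% of all genes), and total counts were not examined for this. The remaining 3 lower genes were Mbtd1, Btaf1 and Brd8. Without C3, Mbtd1 (-0.97) and Brd8 (-0.86) lost their calls, and Btaf1 (-1.11) kept its call.

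The promoters of a gene called higher and a gene called lower are shown for their sequence before the start of transcription. The 150 bases before the RefSeq start (GRCm38.p6, plus strand, 5' to 3') are given with CG dinucleotides in capitals. A window was used only where a GENCODE transcript starts right after it and no exon of its strand overlaps it, which left 12 of the 47 genes, Chd4 and Ruvbl1 the called ones among them. Srcap and Chd5, which were not tested for expression, are in these 12.
Chd4 (chr6:125095831-125095980): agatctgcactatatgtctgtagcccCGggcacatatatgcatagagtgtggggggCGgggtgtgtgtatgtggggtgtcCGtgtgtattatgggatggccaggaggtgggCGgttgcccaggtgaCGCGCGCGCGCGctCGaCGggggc
Ruvbl1 (chr6:88465259-88465408): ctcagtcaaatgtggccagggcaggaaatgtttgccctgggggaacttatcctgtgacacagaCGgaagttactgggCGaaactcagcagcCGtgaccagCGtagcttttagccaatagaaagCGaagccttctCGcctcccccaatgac
The Chd4 window held 12 CG dinucleotides, and 25.5% of 8541 such windows held at least as many. The Ruvbl1 window held 6, and 46.5% of the windows held at least that number. The 12 remodeller windows had a median of 11.5, beside 5 for all. On either strand, GGGCGG was in 10 of the 12 (33.0% of all windows), CCAAT in 3 (27.0%), CACGTG in 1 (4.3%) and TATAAA in 0 (7.3%). The Chd4 window held GGGCGG and the Ruvbl1 window CCAAT. These matches describe the letters alone.

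The direction of the 9 called genes did not turn under any of the 25 alternatives run. Of the genes not called, the sign of Smarcc1, Actl6a, Baz1b, Chd6, Mta1, Mbd2, Mbd3 and Ep400 turned as some oocyte was left out. Without a filter on low genes the calls of Arid2, Chd7 and Ruvbl1 were lost, with thinned counts that of Ruvbl1 and with limma voom that of Arid2. Scaling by total counts moved the median of all genes by a log2 fold change from 0.17 to -0.23 and higher genes from 56.8% to 36.6% of those called. The remodellers called were then 3 higher and 7 lower, without Arid1b and Chd7 and with Smarcb1, Smarce1 and Gatad2a added as lower.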

How the data were processed

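Single oocytes were sequenced by poly(A)-primed RNA-seq. The deposited table holds raw counts by RefSeq gene. The authors filtered the reads, mapped them with TopHat against mm10, retained single best alignments and counted with HTSeq, without normalization. The study's methods and the labels name different versions of HTSeq, and its strand setting is not given in the sources used here.

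Libraries that share an oocyte name (C3, D3, D4, D7) were summed. The labels number them as separate oocytes, but the study's 5 oocytes per group are reached only when each name counts once, and the Spearman correlation was 0.916 to 0.962 within a name and at most 0.893 with any other oocyte. Ranked by total count, the upper 60% of genes with a read entered the fit (9198 of 15432). The genotypes were compared with edgeR 4.0.16 in R 4.3.3 (TMM, glmQLFit, glmQLFTest, genotype as the term). A standard error is the absolute log2 fold change over the square root of F. The common biological coefficient of variation was 0.609. Limits set by few reads cover no more than counting error, because PCR reads carry no molecular identifiers. Coordinates came from GENCODE M21. The procedure was tested on simulated counts.

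The members, the other remodellers, the markers, the pairs and the rule for genes to be named were chosen with earlier results of these data known. By that rule each member is named, with values per oocyte for called genes whose groups do not overlap and for the main ATPases with Daxx, and those of Arid1a, Arid2, Ruvbl1, Smarcd2 and Chd8 were added after their values were seen. Alternatives were DESeq2 1.42.0, limma voom 3.58.1 with quality weights, 3 other scalings, no filter, filterByExpr, an adjusted p alone, every library as its own sample, also with a replicate block, 1 library per oocyte, wt/wt or f/f alone as control, counts thinned to 1375187, GC and length trends removed, and each oocyte left out in turn. Two-cell embryos were not analysed here.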

Additional observations from a re-analysis of the deposited data

Results flagged for a closer look

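Of 117 sets of 4 wt/wt or 5 oocytes of a group, 4 had an oocyte far from the others on log2 CPM, where chance gives about 1 in 20 (5.85 of these sets). Among wt/wt oocytes, wt3 was low for Smarcd2 (6.04 CPM, the others 13.9 to 16.03), with a gap of 0.8508 of the whole range. The wt3 oocyte was also low for Mta1 (1.30 CPM, the others 3.59 to 4.09), with a gap of 0.8739. Among the 5 controls, wt1 was low for Mta3 (36.5 CPM, the others 107 to 139), with a gap of 0.8032, and C3 was high for Chd8 (51.3 CPM, the others 0 to 1.73), with a gap of 0.7129.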

How the results depend on the processing

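Over 25 alternatives none of the 9 called remodeller genes reversed, 169 of their 224 values kept the call and 55 lost it, and no gene kept its call in each alternative. Smarca2, Chd4 and Arid1b kept theirs as each oocyte was left out. Of 736 values of the 30 other genes, 15 gained a call. The counts of calls (9 remodellers, 5 higher and 4 lower; 9 other remodellers; 2384 genes) moved by over 1.5 times as follows. With C3 alone as control they were 1 (0 higher, 1 lower), 2 and 105. With every library as its own sample 7 remodellers were lower. That setting with the replicate block gave 2 (2 higher, 0 lower), 5 and 966. The labels' numbers count oocytes and do not pair them: deviations of same-numbered oocytes correlated at 0.076, 0.099 and -0.089. Total-count scaling gave 3 higher and 7 lower, and no filter gave 2 lower. Other remodellers called were 14 with DESeq2, 16 with voom and 14 with wt/wt alone. Leaving out an oocyte gave 4 (without wt4) to 10 (without C3) remodellers, 3 to 7 higher, 0 to 3 lower, 5 to 14 others and 1607 to 2885 genes. It also gave 0 to 1 subunit pairs, 1 without wt5 or D7. The remodellers called were 5 without wt1, wt3 or D1. Lower calls were 0 without wt4, 1 without wt1 or wt3 and 2 without D1, D2 or D4. With GC and length trends removed, 8 were called, without Arid2, Mta3 and Hells and with Smarcb1 and Gatad2a, and 45.9% of all called genes were higher. Where no cause is named, the cause was not tested. Few reads limit the values of Ruvbl1, Ruvbl2, Chd3, Gatad2b, Smarcc1, Mta2 and Mbd3, which had under 30 reads in each oocyte.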
